A study of Mus musculus with 20 samples.

Results

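Immediate early genes in sorted mesoderm are described here through 9 members chosen by name, 9 of the 18194 genes measured, namely Fos, Fosb, Jun, Junb, Egr1, Egr2, Egr3, Atf3 and Ier2. They were named because Fosb stood high in sorted mesoderm cells lacking de novo DNA methyltransferases, that is, from the contrast of DKO Flk1+ with DKO ES arrays. Every contrast that contains DKO Flk1+ or DKO ES arrays is therefore given as a description with no test. The members had 12 of the 45101 probe sets on the array, 6 of them with 1 probe set each and Jun, Egr2 and Egr3 with 2 each, and the brightest probe set by the mean of 20 arrays stood for its gene.

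The immediate early genes are a small set of genes that cells switch on within minutes of a stimulus, from factors already present in the cell and without new protein synthesis. Most encode transcription factors. Proteins of the Fos family (Fos, Fosb) pair with those of the Jun family (Jun, Junb) to form AP-1, Atf3 is a stress-responsive relative that can also join Jun proteins, the Egr proteins are zinc finger factors that bind GC-rich sites, and Ier2 is a small nuclear protein of the same early wave. Serum, growth factors, stress and the handling of cells are all known triggers, and the transcripts and proteins are usually short-lived.

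The study asked how mesoderm cells without DNA methylation by Dnmt3a and Dnmt3b respond to the transcription factor Gata4, and measured RNA on Affymetrix mouse arrays in 10 groups of 2 arrays. DKO cells lacked Dnmt3a and Dnmt3b (Dnmt3a-/-Dnmt3b-/-) and WT cells had both, all on the 129sv/Jae background of the J1 line, and ES (embryonic stem) cells were kept in LIF without feeders. Apart from the parental lines named below, DKO arrays came from 1 clone (16G4.3) and WT arrays from 1 clone (J1G4.2), each carrying Gata4GR, a fusion of Gata4 with the hormone-binding part of the glucocorticoid receptor. A CAG promoter drives it, and dexamethasone (Dex) activates its product. The 5 states of each genotype were ES cells, primitive endoderm (PE) made by giving ES cells 100 nM Dex for 4 days, Flk1+/PDGFRa+ mesoderm cells sorted after 4 days on type IV collagen (called Flk1+), and those sorted cells cultured for 4 more days without Dex (Dex-) or with 100 nM Dex (Dex+). For the Flk1+ state, replicate 1 was grown from the parental ES lines that carry no Gata4GR (16aabb in DKO, J1 in WT). Replicate 2 came from the clones. In all other states each genotype was 1 clone. The parental DKO line is itself 1 clone (16aabb), from which 16G4.3 was made. Genotype and clone therefore cannot be told apart in any state. Flk1+ cells had been detached with trypsin, stained and sorted just before lysis, so the mesoderm state and its handling cannot be told apart. Dex can also bind the cells' own glucocorticoid receptor, and its effects through that receptor and through Gata4GR cannot be told apart. The recovery of Flk1+ cells from DKO cultures on collagen was low by the study's own account, and more DKO cells had been plated.

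Values are log2 intensities after robust multi-array averaging (RMA) by the authors, so a difference of 1 is a doubling. Each array's median lay between 5.785 and 5.867, and the 2 arrays of a group correlated at 0.979 to 0.996 over all genes. The Flk1+ pairs were the least alike, with 698 genes in DKO and 880 in WT at least 2-fold apart between replicates, against 20 to 256 in the other groups. The mesoderm markers were high in Flk1+ cells. Their mean covered 5 measured markers, Kdr (which encodes Flk1), Pdgfra, Mixl1, Mesp1 and Hand1. It was 10.79 to 10.92 on DKO Flk1+ arrays and 10.69 to 10.85 on WT Flk1+ arrays, and 6.06 to 7.95 on all other arrays. The cells were sorted on Flk1 and PDGFRa, so Kdr and Pdgfra were selected by the sort. ES cell markers (Pou5f1, Nanog, Sox2, Zfp42) averaged 7.83 and 8.52 in DKO Flk1+ and 8.46 and 7.35 in WT Flk1+ cells, against 12.19 to 12.64 in ES cells. Endothelial markers (Pecam1, Cdh5, Tek, Tie1) averaged 4.75 to 5.04 and blood markers (Gata1, Ptprc, Hbb-bh1, Itga2b, Klf1) 5.57 to 5.72 in Flk1+ cells, below the array medians. In bulk RNA, fewer expressing cells and less RNA per cell cannot be told apart, which holds for every value below.

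Sorted WT mesoderm held far more immediate early transcript than WT ES cells. In WT Flk1+ against WT ES cells 7 of 9 members rose, where 6.15% of all genes were called higher (limma, Benjamini-Hochberg adjusted p under 0.05 over 18194 genes and at least 2-fold). The increases were 68.4-fold for Fosb, 58.6-fold for Fos, 22-fold for Egr2, 15.5-fold for Jun, 5.98-fold for Egr1, 5.91-fold for Atf3 and 2.11-fold for Junb. The median change over the 9 members was 2.58 on the log2 scale, and 0.03 over all genes. Egr3 and Ier2 were the members not called. All ES arrays were scanned on a day of their own, so scan day and the ES state cannot be told apart. In the chip lot that held 1 array of each group, line (J1 in Flk1+, J1G4.2 in ES cells) and scan day still differed. Within that lot the increases were 6.03 for Fosb, 5.94 for Fos, 4.12 for Egr2 and 3.72 for Jun on the log2 scale. For Atf3, Egr1 and Junb they were 2.93, 2.15 and 0.96. DKO Flk1+ cells stood likewise against DKO ES cells, with 7 of 9 members at least 2-fold higher, by 92.3-fold for Fosb, 29.8-fold for Fos, 16.3-fold for Egr2 and 10.4-fold for Jun, where 4.86% of all genes were at least 2-fold higher. That contrast chose the set, so nothing is read from its count. WT Flk1+ cells were the same sorted state, and the members were chosen with earlier results of these data known. The WT count therefore describes the chosen genes and is not independent support. The same limit holds for the counts of WT Flk1+ against WT PE and WT Dex- cells below.

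**Figure D1:**
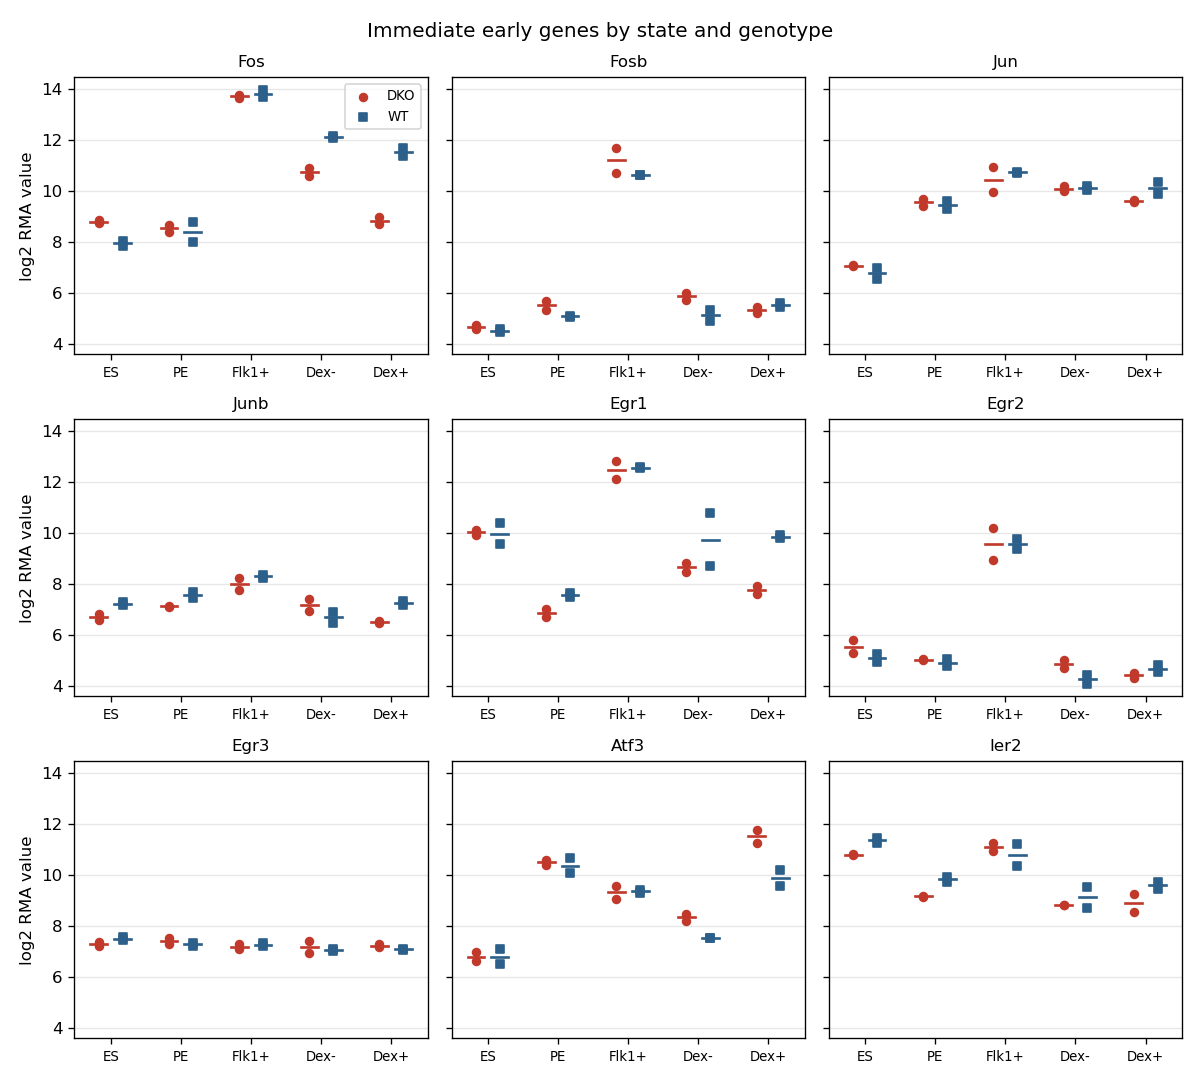
Log2 RMA value (vertical axis) of each member's main probe set in the 5 states (horizontal axis), with 1 point per array, DKO (circles) left of WT (squares) and a line at the mean of the 2 arrays. Fos, Fosb, Egr1 and Egr2 peak in Flk1+ cells of both genotypes, Atf3 is highest in DKO Dex+ cells at 11.27 and 11.75, and the main Egr3 probe set stays between 6.95 and 7.56. Levels of different probe sets are not comparable with each other.

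Of the Fos family, Fos is the classic partner of Jun in AP-1. In DKO cells Fos read 8.88 and 8.73 in ES cells, 8.67 and 8.40 in PE, 13.64 and 13.77 in Flk1+, 10.90 and 10.57 in Dex- and 8.97 and 8.69 in Dex+. In WT cells Fos read 8.03 and 7.86 in ES cells, 8.80 and 8.0 in PE, 13.96 and 13.67 in Flk1+, 12.15 and 12.07 in Dex- and 11.67 and 11.37 in Dex+. All 4 Flk1+ arrays lay above all 16 others, the DKO and WT Flk1+ arrays overlapped, and the cultured cells separated by genotype, with DKO below WT on every array. Fos rose by 5.87 ± 0.22 (SE) in WT Flk1+ against WT ES cells (adjusted p = 2.34e-10), and fell by 1.71 ± 0.22 in WT Dex- against WT Flk1+ cells (adjusted p = 3.25e-05), so that WT Dex- cells stayed above WT ES cells on both arrays.

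Fosb, the member behind the choice of the set, encodes a Fos relative with AP-1 activity. In DKO cells Fosb read 4.58 and 4.75 in ES cells, 5.36 and 5.68 in PE, 10.71 and 11.68 in Flk1+, 6.01 and 5.75 in Dex- and 5.24 and 5.46 in Dex+. In WT cells Fosb read 4.59 and 4.47 in ES cells, 5.12 and 5.06 in PE, 10.62 and 10.63 in Flk1+, 5.35 and 4.92 in Dex- and 5.44 and 5.61 in Dex+. It was high in Flk1+ cells alone among the 5 states, and the 2 parental-line arrays read nearly the same (10.71 in DKO and 10.62 in WT). WT Flk1+ cells exceeded WT ES cells by 6.10 ± 0.24 (adjusted p = 3.49e-10) and WT PE by 5.54 ± 0.24 (adjusted p = 5.98e-10), and Fosb fell by 5.49 ± 0.24 in WT Dex- against WT Flk1+ cells (adjusted p = 1.12e-09). By size of increase Fosb ranked 5 among 18194 genes in DKO Flk1+ against DKO ES cells and 10 in WT Flk1+ against WT ES cells, and Fos ranked 19 and 12 in the same contrasts. The DKO contrast chose the set, so nothing is read from the ranks in it.

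The Jun family showed a broader and a smaller change. Jun, the main partner of Fos, read in DKO cells 7.05 and 7.09 in ES cells, 9.42 and 9.68 in PE, 9.96 and 10.93 in Flk1+, 10.20 and 9.98 in Dex- and 9.58 and 9.64 in Dex+. In WT cells Jun read 7.0 and 6.57 in ES cells, 9.59 and 9.30 in PE, 10.71 and 10.76 in Flk1+, 10.04 and 10.19 in Dex- and 9.90 and 10.35 in Dex+. On this brighter probe set Jun was thus high in every differentiated state, and only the ES arrays stood apart. On the dimmer one (1417409_at) the Flk1+ arrays, at 9.98 to 10.73, lay above all others, which reached at most 9.44. On the brighter probe set Jun rose in WT PE against WT ES cells by 2.66 ± 0.25 (adjusted p = 1.52e-06). It rose further in WT Flk1+ against WT PE by 1.29 ± 0.25 (adjusted p = 0.00166).

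Junb, a weaker activator of the same family, moved least of the called members. In DKO cells Junb read 6.82 and 6.61 in ES cells, 7.16 and 7.09 in PE, 7.75 and 8.25 in Flk1+, 7.41 and 6.93 in Dex- and 6.46 and 6.56 in Dex+. In WT cells Junb read 7.28 and 7.17 in ES cells, 7.69 and 7.47 in PE, 8.24 and 8.36 in Flk1+, 6.47 and 6.92 in Dex- and 7.17 and 7.33 in Dex+. Its highest arrays were those of Flk1+ cells in both genotypes. The rise of 1.08 ± 0.20 in WT Flk1+ against WT ES cells passed the test (adjusted p = 0.000825), and Junb fell by 1.61 ± 0.20 in WT Dex- against WT Flk1+ cells (adjusted p = 2e-05).

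Among the Egr factors, Egr1 was already well above the array median in ES cells. In DKO cells Egr1 read 10.10 and 9.94 in ES cells, 6.70 and 7.01 in PE, 12.12 and 12.80 in Flk1+, 8.84 and 8.47 in Dex- and 7.62 and 7.93 in Dex+. In WT cells Egr1 read 10.38 and 9.57 in ES cells, 7.65 and 7.48 in PE, 12.53 and 12.58 in Flk1+, 8.69 and 10.77 in Dex- and 9.79 and 9.93 in Dex+. Flk1+ arrays were the highest, PE arrays the lowest of each genotype, and the 2 WT Dex- arrays were far apart. In WT cells Egr1 changed in PE against ES cells by -2.41 ± 0.46 (adjusted p = 0.000914), higher in Flk1+ than in ES cells by 2.58 ± 0.46 (adjusted p = 0.000642), and higher in Flk1+ than in PE by 4.99 ± 0.46 (31.8-fold, adjusted p = 1.56e-06).

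Egr2, known for its part in hindbrain and Schwann cell development, was high where Fosb was high. In DKO cells Egr2 read 5.80 and 5.30 in ES cells, 5.08 and 5.01 in PE, 8.95 and 10.20 in Flk1+, 5.03 and 4.73 in Dex- and 4.33 and 4.52 in Dex+. In WT cells Egr2 read 5.26 and 4.94 in ES cells, 5.05 and 4.81 in PE, 9.38 and 9.75 in Flk1+, 4.46 and 4.10 in Dex- and 4.82 and 4.57 in Dex+. No array outside the 4 Flk1+ arrays exceeded 5.80. Egr2 rose by 4.46 ± 0.31 in WT Flk1+ against WT ES cells (adjusted p = 6.12e-08) and fell by 5.29 ± 0.31 in WT Dex- against WT Flk1+ cells (adjusted p = 1.65e-08). Over the 10 group means Fosb and Egr2 correlated at 0.96, the closest pair of members, and Atf3 correlated with Fosb at 0.19 (Pearson r as a description, with arrays sharing states and lines).

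For Egr3 the answer depended on the probe set. Its brighter probe set (1421486_at) read 7.28 and 7.09 in DKO Flk1+ and 7.32 and 7.23 in WT Flk1+ cells, within the 6.95 to 7.56 of all 20 arrays. The dimmer one (1436329_at) read 6.81 and 9.91 in DKO Flk1+ and 8.54 and 9.42 in WT Flk1+ cells, and between 3.68 and 4.65 on the other 16 arrays. On the dimmer probe set all 4 Flk1+ arrays stood above the rest, with the DKO parental line lowest of the 4. In a fit over 34958 probe sets with 1 gene each, where 11% were called in either direction, the dimmer probe set rose by 5.11 ± 0.66 in WT Flk1+ against WT ES cells (adjusted p = 5.08e-05), while the brighter one changed by -0.23 ± 0.15 (adjusted p = 0.32). Which of them measures Egr3 transcript was not tested. The pairs of Jun and Egr2 probe sets moved alike in that contrast, by 3.95 ± 0.25 and 3.58 ± 0.34 for Jun and by 4.46 ± 0.31 and 3.99 ± 0.37 for Egr2, and all 4 passed.

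**Figure D2:**
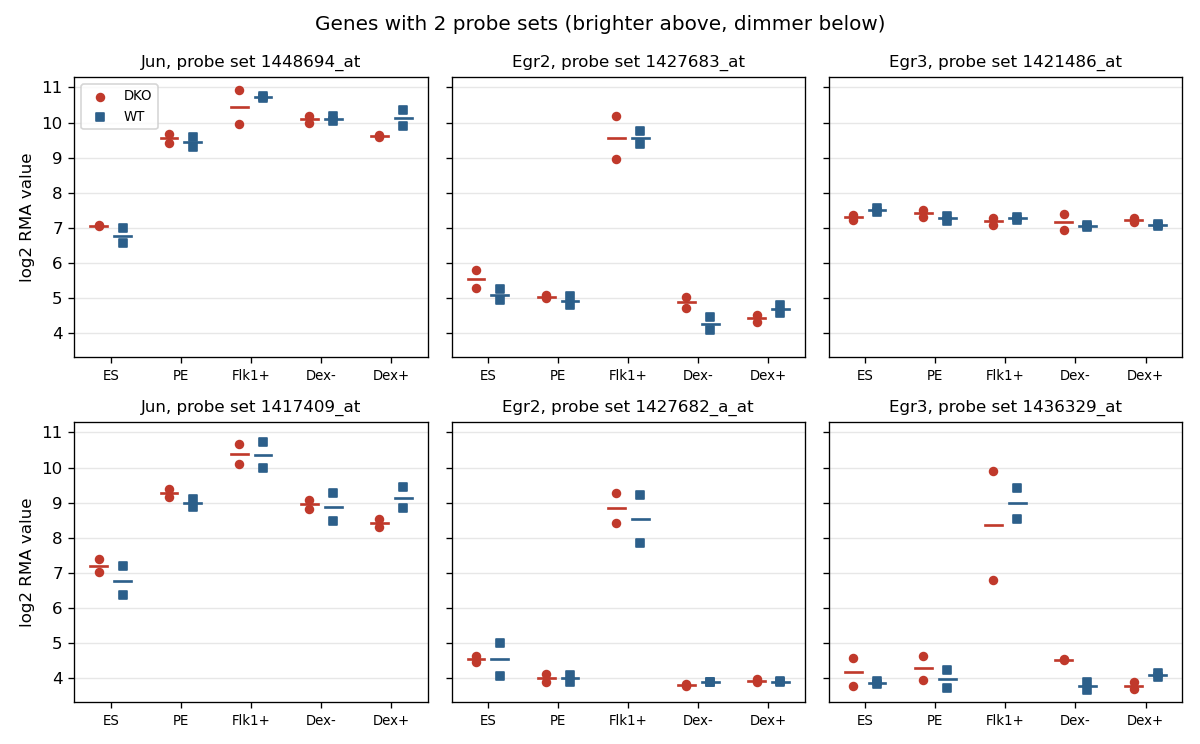
Log2 RMA value (vertical axis) of both probe sets of Jun, Egr2 and Egr3 by state (horizontal axis), the brighter probe set above and the dimmer below, 1 point per array, DKO (circles) left of WT (squares), with a line at the mean of 2 arrays. Both probe sets of Jun and Egr2 rise in Flk1+ cells, and Egr3 does so on 1436329_at, where the 4 Flk1+ arrays read 6.81 to 9.91.

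Atf3, induced by many stresses, and Ier2 followed other patterns. In DKO cells Atf3 read 6.62 and 6.99 in ES cells, 10.59 and 10.40 in PE, 9.07 and 9.57 in Flk1+, 8.49 and 8.21 in Dex- and 11.75 and 11.27 in Dex+. In WT cells Atf3 read 6.50 and 7.10 in ES cells, 10.65 and 10.07 in PE, 9.43 and 9.29 in Flk1+, 7.53 and 7.52 in Dex- and 9.56 and 10.21 in Dex+. Both states with Dex were thus above both Flk1+ and Dex- cells within each genotype. Atf3 rose by 3.56 ± 0.27 in WT PE against WT ES cells (11.8-fold, adjusted p = 1.95e-07) and by 2.56 ± 0.27 in WT Flk1+ against WT ES cells (adjusted p = 5.47e-06).

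In DKO cells Ier2 read 10.77 and 10.83 in ES cells, 9.18 and 9.15 in PE, 10.92 and 11.27 in Flk1+, 8.82 and 8.81 in Dex- and 8.55 and 9.25 in Dex+. In WT cells Ier2 read 11.26 and 11.44 in ES cells, 9.92 and 9.73 in PE, 10.36 and 11.22 in Flk1+, 8.72 and 9.54 in Dex- and 9.47 and 9.71 in Dex+. The ES and Flk1+ arrays were the highest of each genotype, and the other states lay below them. The change of -0.56 ± 0.29 in WT Flk1+ against WT ES cells did not pass (adjusted p = 0.182), whereas Ier2 fell by 1.52 ± 0.29 in WT PE against WT ES cells (adjusted p = 0.000879) and by 1.66 ± 0.29 in WT Dex- against WT Flk1+ cells (adjusted p = 0.000421).

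Promoter sequences are shown for the 3 members with the largest increase in sorted mesoderm and for Atf3, which was higher in PE than in Flk1+ cells. RefSeq windows (build GRCm38.p6, 250 bases before to 50 after a transcript start) were held for 6 of 9 members, namely Fos, Fosb, Jun, Junb, Egr2 and Atf3, and not for Egr1, Egr3 and Ier2. The last 150 bases before the start are printed 5′ to 3′ along the gene, from chr7:19310046-19310195 (minus strand) for Fosb, chr12:85473740-85473889 (plus strand) for Fos, chr10:67537719-67537868 (plus strand) for Egr2 and chr1:191183334-191183483 (minus strand) for Atf3. Capitals mark matches to the motifs searched on both strands.
Fosb promoter: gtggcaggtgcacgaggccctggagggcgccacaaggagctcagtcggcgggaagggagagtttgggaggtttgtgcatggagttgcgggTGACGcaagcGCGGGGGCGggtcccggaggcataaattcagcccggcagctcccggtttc
Fos promoter: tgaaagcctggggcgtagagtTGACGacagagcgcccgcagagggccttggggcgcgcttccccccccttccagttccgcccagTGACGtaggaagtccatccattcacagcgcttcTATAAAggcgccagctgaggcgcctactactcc
Egr2 promoter: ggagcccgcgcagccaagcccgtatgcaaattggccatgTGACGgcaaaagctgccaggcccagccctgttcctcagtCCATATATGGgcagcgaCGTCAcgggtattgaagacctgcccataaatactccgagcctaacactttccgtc
Atf3 promoter: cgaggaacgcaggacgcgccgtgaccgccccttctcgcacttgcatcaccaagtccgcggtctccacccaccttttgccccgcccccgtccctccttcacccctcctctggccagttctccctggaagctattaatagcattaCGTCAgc
The searched motifs were the full cAMP response element TGACGTCA, its core TGACG (also a part of the full element), the AP-1 site TGACTCA, the EGR sites GCGGGGGCG and GCGTGGGCG, the TATA motif TATAAA, and the CArG box, the site of serum response factor. The core TGACG stood in a window of 5 of 6 members, all but Jun, and in 20.8% of all 32851 windows, and on the other strand it reads CGTCA as in Atf3. A CArG box stood in Egr2 alone of the 6 (1.63% of all windows), in the printed window flanked by a core on each side, and Egr2 had 5 windows of which 3 overlapping ones held that arrangement. An EGR site stood in Fosb (3.47%), TATAAA in Fos and Junb (13.6%), and neither the full element (1.79%) nor the AP-1 site (5.2%) in any. Sites outside the windows were not searched, so a motif missing here may lie further away. The percentages are per window, while Egr2 had 5 windows. These matches describe letters and say nothing of binding.

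Primitive endoderm is the other fate reached from ES cells here. PE cells had received Dex with Gata4GR and were scanned on other days than ES cells, so fate, Dex and scan day cannot be told apart in this contrast. In WT PE against WT ES cells Jun and Atf3 rose and Egr1 and Ier2 fell, 2 of 9 members each way, against 7.68% of all genes higher and 6.55% lower. Fos, Fosb, Junb and Egr2 did not pass, with changes of 0.45, 0.56, 0.36 and -0.17. DKO PE stood likewise against DKO ES cells, given without a test, with Jun higher by 2.47 and Atf3 by 3.69 and with changes of -3.17 for Egr1 and -1.63 for Ier2 (8.26% of genes at least 2-fold higher and 8.4% lower).

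Set directly against WT PE, WT Flk1+ cells were higher in 5 of 9 members (Fos, Fosb, Jun, Egr1 and Egr2), where 4.64% of all genes were called higher. Fos was 42.7-fold and Egr2 24.8-fold higher in WT Flk1+ cells. Atf3 (-1.0 ± 0.27), Junb (0.72 ± 0.20) and Ier2 (0.96 ± 0.29) had adjusted p-values of 0.016, 0.0167 and 0.0276 with less than a 2-fold change. With scan day as a block Atf3 (-1.08) and Ier2 (1.18) also passed, and both did so without the parental-line array of WT Flk1+ (-1.07 and 1.39). Within the scan day that held 1 array of each, Fosb was higher by 5.51, Fos by 4.87, Egr1 by 4.94 and Egr2 by 4.70 in WT Flk1+ than in WT PE.

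After 4 days of culture without Dex, Fosb, Egr2, Egr1, Junb and Atf3 lost most of their increase in WT cells. Fos and Jun kept most of theirs on the log2 scale, with means of 12.11 and 10.12 in WT Dex- cells against 7.94 and 6.78 in WT ES cells. In WT Dex- against WT Flk1+ cells 7 of 9 members fell, where 7.79% of all genes were called lower, with a median change of -1.71 over the members and 0.01 over all genes. The genes were named for the sorted state, and the same WT Flk1+ arrays served above, so this count is not separate support. Fosb was 45-fold and Egr2 39.0-fold lower, Egr1 7.1-fold, Atf3 3.57-fold, Fos 3.26-fold, Ier2 3.16-fold and Junb 3.05-fold. Jun changed by -0.62 ± 0.25 on its brighter probe set (adjusted p = 0.0823), which did not pass, and by -1.47 ± 0.34 on the other (adjusted p = 0.00436 over probe sets, of which 13.3% were called), which did. Egr3 changed by -0.22 ± 0.15 on its brighter probe set (adjusted p = 0.351 over probe sets), which did not pass. On its dimmer one it changed by -5.18 ± 0.66 (adjusted p = 3.76e-05), which did. Egr1 is the member whose WT Dex- arrays were furthest apart (8.69 and 10.77), and both lay below the WT Flk1+ arrays. Within the scan day that held replicate 1 of both groups the changes were -5.28 for Fosb, -4.92 for Egr2, -3.84 for Egr1 and -1.81 for Fos. The line still differed there, with J1 in WT Flk1+ and J1G4.2 in WT Dex- cells. In DKO Dex- against DKO Flk1+ cells, without a test, 5 of 9 members were at least 2-fold lower (8.51% of all genes), by 39.8-fold for Fosb, 25.9-fold for Egr2, 14.0-fold for Egr1, 7.84-fold for Fos and 4.86-fold for Ier2. Without the parental-line arrays that count was 7, with Atf3 (-1.22) and Junb (-1.08) added. Fos and Atf3 did not follow the WT pattern in DKO cells. With all arrays, Fos had risen by 4.90 over DKO ES cells and changed by -2.97 in this step. Atf3 had risen by 2.52 and changed by -0.97. Mural cell markers (Acta2, Tagln, Cnn1, Myl9) moved with this step, averaging 11.50 and 11.86 in DKO Dex- and 11.75 and 11.84 in WT Dex- cells, against 8.01 and 9.29 in DKO Flk1+ and 8.10 and 7.46 in WT Flk1+ cells, and their part in the result was not tested.

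**Figure D3:**
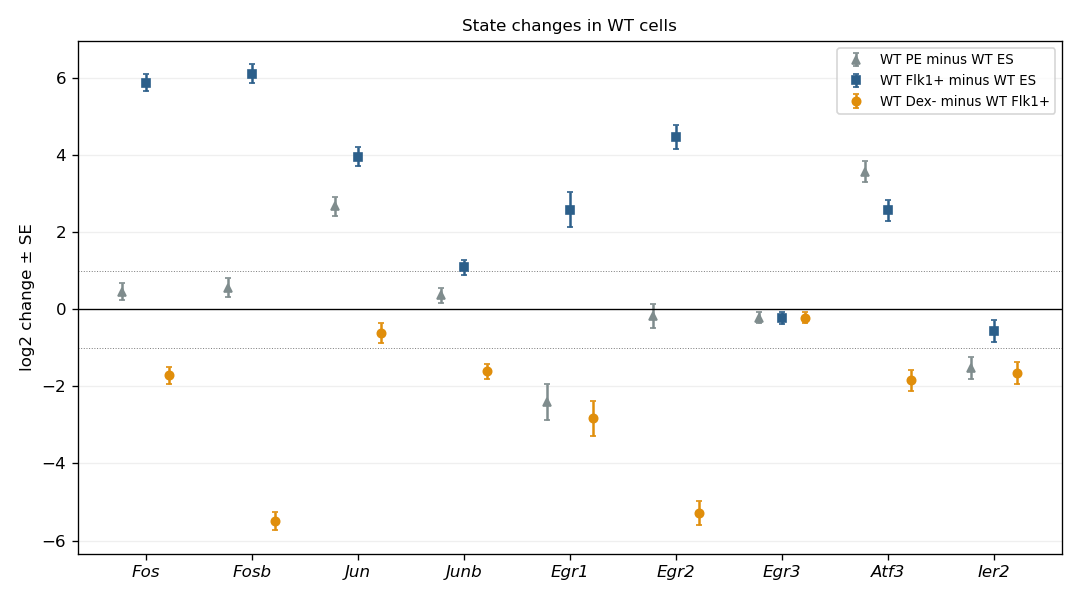
Log2 change with its standard error (vertical axis) of the 9 members (horizontal axis) in WT cells, for PE minus ES (triangles), Flk1+ minus ES (squares) and Dex- minus Flk1+ (circles), with dotted lines at 2-fold. Fosb, Egr2 and Egr1 rise in Flk1+ cells and fall back in Dex- cells by a similar amount, Fos falls back by 1.71 of its 5.87, and Atf3 and Jun also rise in PE.

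Genes that share a pathway with the members were counted from 8 lists in WT Flk1+ against WT ES cells, beside the 6.15% of genes called higher and 6.3% called lower. Of 18 feedback genes that damp immediate early signalling, 7 rose and 1 fell, with a median change of 0.84 against 0.03 over all genes. Zfp36, which destabilises short-lived transcripts, rose by 1.41 ± 0.22, Nab1, a corepressor of Egr proteins, by 1.31 ± 0.26, and Dusp4, a MAP kinase phosphatase, by 1.27 ± 0.31, while Spry4, an inhibitor of receptor kinase signalling, fell by 1.42 ± 0.15 (adjusted p between 6.12e-06 and 0.00685). Against WT PE, 10 of these 18 were higher in WT Flk1+ cells (4.64% of all genes), with a median of 1.15 (0.00 over all genes).

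Of 25 other immediate early genes 7 rose and 1 fell, with a median of 0.21. Ier5 rose by 2.98 ± 0.23, Rhob, a small GTPase, by 2.49 ± 0.21, Ccn1, a matrix protein, by 2.30 ± 0.58 and Btg2, an antiproliferative gene, by 1.94 ± 0.30. In WT Dex- against WT Flk1+ cells, where Fosb fell, Ccn1 rose by a further 2.33 ± 0.58 (adjusted p = 0.00622) and Rhob by 1.15 ± 0.21 (adjusted p = 0.000722). Ier5 (0.58 ± 0.23, adjusted p = 0.0746) and Btg2 (-0.15 ± 0.30, adjusted p = 0.786) did not pass there. Over the list 9 rose and 2 fell in WT Dex- against WT Flk1+ cells (7.49% of all genes rose), while 8 of 17 other immediate early transcription factors fell (7.79% of all genes). Of those 17 factors 4 rose and 2 fell in WT Flk1+ against WT ES cells, with Hes1, a Notch target, up by 2.23 ± 0.17 and Nfil3 up by 1.45 ± 0.15. Klf2, which is also high in ES cells, fell by 3.06 ± 0.35 and Klf10 fell by 1.57 ± 0.37.

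Of 16 AP-1 partners and relatives measured out of 18 listed, 3 rose. They were Fosl2, another Fos relative, by 3.02 ± 0.32, Maf by 2.96 ± 0.53 and Maff by 1.41 ± 0.32. Fosl2 read 11.11 and 11.36 in WT Dex- cells, against 9.48 and 8.88 in WT Flk1+ cells, a rise of 2.05 ± 0.32 (adjusted p = 0.000158) where Fosb fell. Of 17 upstream factors measured out of 20, 2 rose, Rps6ka3, a kinase below ERK, by 1.17 ± 0.29 and Srf, the factor that binds CArG boxes, by 1.06 ± 0.37. Of 21 AP-1 and EGR target genes measured out of 22, 4 rose and 1 fell, among them Flt1, a VEGF receptor, by 2.71 ± 0.25, and Icam1, an adhesion molecule, with -2.01 ± 0.25.

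Other stress programmes were counted in the same way, and Atf4, Fosl1 and Nab2 each stood in 2 of the lists. Of 12 heat shock genes measured out of 14, 2 rose (Hspa5 by 1.19 ± 0.18 and Bag3 by 1.18 ± 0.20) and Hspb1 fell by 2.07 ± 0.27, with a median of -0.01. Of 15 genes of the integrated stress response, 2 rose, with a median of -0.23. One of them was Vldlr, a lipoprotein receptor, by 5.05 ± 0.36, and the other Xbp1, a factor of the unfolded protein response, by 1.27 ± 0.21.

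**Figure D4:**
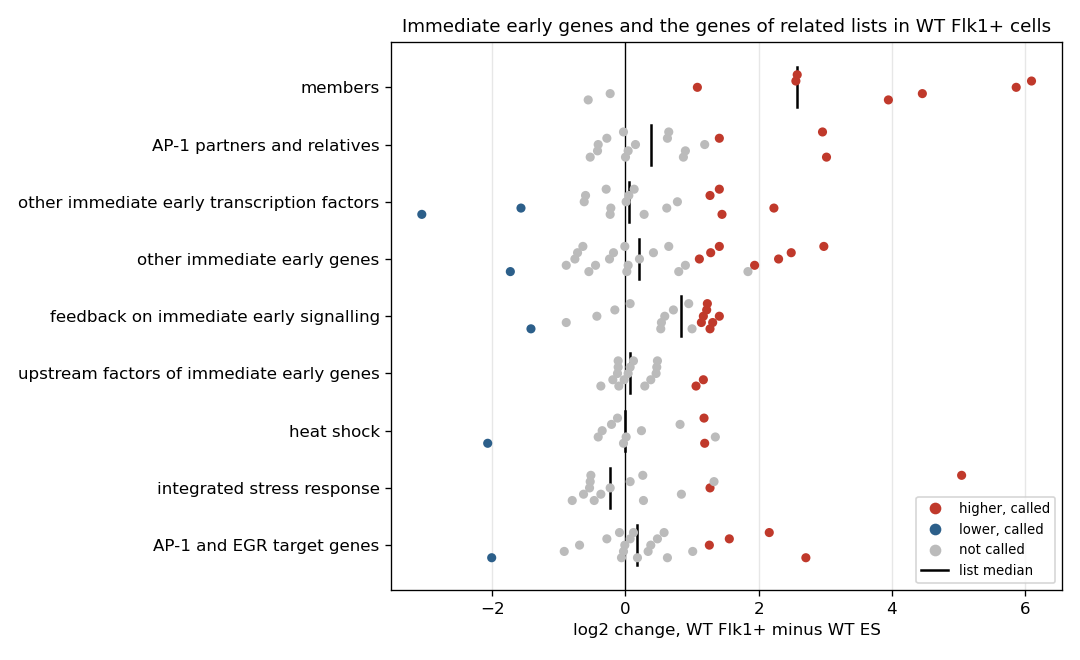
Log2 change in WT Flk1+ minus WT ES cells (horizontal axis) for each measured gene of the 9 members and 8 related lists (rows), red where called higher, blue where called lower and grey otherwise, with a black line at each list's median. The members' median is 2.58, that of the feedback list 0.84 and that of the heat shock list -0.01.

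With the members themselves left out of the ranking, the genes whose group means followed Fosb most closely were not other immediate early genes of the lists. Among 3442 genes whose 10 group means spanned at least 2 log2 units, the 8 with the highest Pearson r to Fosb were Lhx1os (0.991), Tbx6 (0.989), St6galnac4 (0.985), Efnb3 (0.983), Mixl1 (0.982), Mesp1 (0.981), Dapk2 (0.98) and Cxcr4 (0.979). Tbx6, Mixl1 and Mesp1 encode transcription factors of early mesoderm, and Cxcr4 a chemokine receptor. Mixl1 averaged 11.65 in DKO Flk1+ and 12.43 in WT Flk1+ cells, and at most 6.44 in any other group. Over 20 arrays 7 of these 8 were again among the nearest 8, and by rank correlation none, so the likeness rests on the 2 Flk1+ groups standing apart. The 8 genes nearest to the mean of the members were Tbx6 (0.984), Cxcr4, Lhx1, Cdh4, Mixl1, Mesp1, L1cam and Lhx1os (0.97).

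Between DKO Flk1+ and WT Flk1+ cells the members are given without a test, because DKO Flk1+ arrays served the choice. On the main probe sets 0 of 9 members had means 2-fold apart, and nothing is read from that count since 1.69% of all genes were. Fosb was 11.19 on average in DKO Flk1+ and 10.63 in WT Flk1+ cells, a difference of 0.57. By replicate the difference was 0.08 between the parental lines (10.71 in DKO, 10.62 in WT) and 1.05 between the transgenic clones (11.68 in DKO, 10.63 in WT). It thus passed 2-fold only where the parental lines or the DKO parental array were left out (1.05 and 1.06). The means of the other 8 members differed by between -0.30 and 0.30 on the main probe sets, but for several the replicates went opposite ways. The difference was -0.76 in the parental lines and 0.17 in the clones for Jun, -0.43 and 0.46 for Egr2, and -0.41 and 0.22 for Egr1. On the dimmer Egr3 probe set it was -1.73 in the parental lines and 0.49 in the clones, with means -0.62 apart. DKO ES and WT ES cells were also within 2-fold for all 9 members, the widest being Fos with 0.86 (2.15% of all genes were 2-fold apart).

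In PE no member passed between DKO and WT (limma, 0 of 9 called, where 1.96% of all genes were called in either direction). The differences lay between -0.71 ± 0.46 for Egr1 and 0.43 ± 0.24 for Fosb, and the lowest adjusted p was 0.317. At an unadjusted p under 0.05 the count was 2, Junb (-0.46) and Ier2 (-0.66), where 13.1% of all genes passed. These values come from the fit over all groups. In a limma fit of the PE groups alone Egr1 (-0.71) had an adjusted p of 0.0258, against 0.627, and was still less than 2-fold apart.

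In cultured mesoderm Fos was lower in cells of the DKO clone than in those of the WT clone. In DKO Dex- against WT Dex- cells only Fos passed, lower by 2.6-fold (-1.38 ± 0.22, adjusted p = 0.00075), 1 of 9 members where 2.34% of all genes were called lower. Atf3 was 0.82 ± 0.27 and Fosb 0.75 ± 0.24 apart in the other direction, short of the threshold (adjusted p = 0.0635 and 0.0577). Egr1 changed by -1.07 ± 0.46 (adjusted p = 0.162), a value set by the 2 WT Dex- arrays: without the first it was -2.11 (adjusted p = 0.000879) and without the second -0.03. Fos differed by -1.25 within the scan day of replicate 1 and by -1.50 within that of replicate 2.

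With Dex 3 members passed between the genotypes. In DKO Dex+ against WT Dex+ cells Fos was 6.48-fold lower (-2.70 ± 0.22, adjusted p = 7.17e-07) and Egr1 4.24-fold lower (-2.09 ± 0.46, adjusted p = 0.00447), while Atf3 was 3.09-fold higher (1.63 ± 0.27, adjusted p = 0.000559). Fos read 8.97 and 8.69 in DKO Dex+ cells and 11.67 and 11.37 in WT Dex+ cells, and the groups did not overlap for any of the 3. That made 2 of 9 members lower and 1 higher, beside 4.83% and 4.81% of all genes. Junb changed by -0.74 ± 0.20, less than 2-fold (adjusted p = 0.0156). All 4 of these arrays shared 1 scan day.

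Between Dex+ and Dex- cells 1 of 9 members passed in WT and 2 of 9 in DKO, and nothing is read from these counts. Atf3 rose in both genotypes, by 3.16 ± 0.27 in DKO (8.95-fold, adjusted p = 1.02e-06) and by 2.36 ± 0.27 in WT (5.12-fold, adjusted p = 0.000135). In WT it was the only member called in Dex+ against Dex- cells, where 1.15% of all genes were called higher and 0.451% lower. In DKO Fos also passed and fell by 1.91 ± 0.22 (3.75-fold, adjusted p = 2.02e-05), where 4.64% of all genes were called higher and 4.99% lower. In WT the change of Fos was -0.59 ± 0.22 and did not pass (adjusted p = 0.257). DKO Dex+ and DKO ES cells overlapped in Fos (8.97 and 8.69 against 8.88 and 8.73), whereas WT Dex+ cells stayed above WT ES cells on both arrays.

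The difference between the 2 Dex responses was tested itself. DKO minus WT, it was -1.32 ± 0.31 for Fos (adjusted p = 0.0182) and -1.21 ± 0.28 for Junb (adjusted p = 0.0152), 2 of 9 members where 3.13% of all genes were called lower. Junb changed by -0.66 ± 0.20 in DKO and by 0.55 ± 0.20 in WT, neither of them 2-fold. The difference was 0.80 ± 0.38 for Atf3 and did not pass (adjusted p = 0.28). Both calls rested on few arrays. Fos lost its call without replicate 1 of WT Dex-, DKO Dex- or WT Dex+ or replicate 2 of DKO Dex+ (adjusted p between 0.0516 and 0.0891), and Junb without replicate 1 of WT Dex-, DKO Dex- or DKO Dex+ or replicate 2 of WT Dex+ (adjusted p between 0.058 and 0.0837). Within the scan day shared by 6 of the 8 arrays Fos changed with Dex by -1.74 in DKO and -0.55 in WT, and Junb by -0.42 in DKO and 0.33 in WT. Among the related genes Ier5 fell by 3.68 ± 0.23 with Dex in DKO and changed by -0.16 ± 0.23 in WT, a difference of -3.53 ± 0.32 that passed (adjusted p = 1.02e-05). Of the 18 feedback genes 8 fell with Dex in DKO (4.99% of all genes), and the difference between the responses passed as lower for 4 (3.13%). Primitive endoderm markers (Sox17, Sox7, Gata6, Foxa2, Dab2, Lamb1) averaged 11.71 and 11.77 in DKO Dex+ and 8.63 and 8.51 in DKO Dex- cells, and 9.45 and 9.81 in WT Dex+ and 8.14 and 8.57 in WT Dex- cells. Mural markers averaged 10.50 and 9.79 in DKO Dex+ and 11.50 and 11.86 in DKO Dex- cells, and 12.31 and 12.29 in WT Dex+ and 11.75 and 11.84 in WT Dex- cells, and the part of this change of cell state in the Fos, Egr1 and Atf3 values was not tested.

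**Figure D5:**
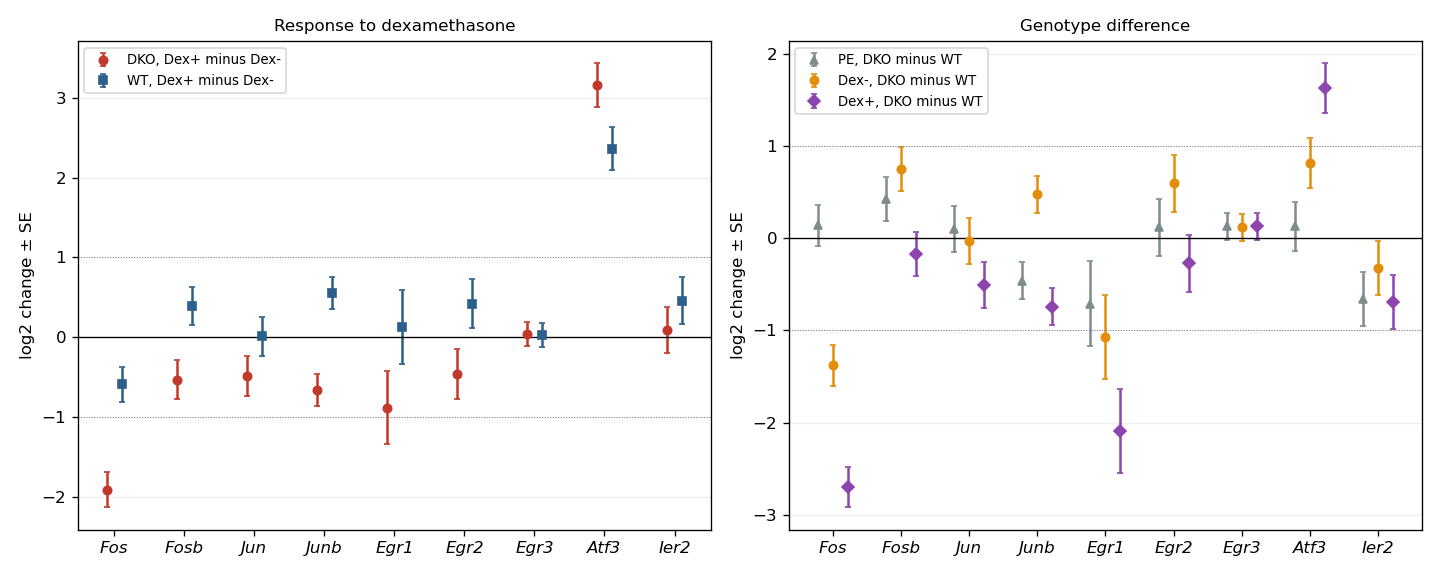
Log2 change with its standard error (vertical axes) of the 9 members (horizontal axes), left for Dex+ minus Dex- in DKO (circles) and WT (squares), right for DKO minus WT in PE (triangles), Dex- (circles) and Dex+ (diamonds), with dotted lines at 2-fold. Atf3 rises with Dex in both genotypes, Fos falls by 1.91 in DKO, and the Fos difference between genotypes is -1.38 without and -2.70 with Dex.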

How the data were processed

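RNA was measured on 20 Affymetrix whole-genome mouse expression arrays, 2 for each of 10 groups, from 50 ng of RNA with 2 cycles of labelling. The authors normalised the arrays by robust multi-array averaging, and the deposited values are log2 intensities. The number of arrays limits the precision: with 2 arrays against 2 an exact permutation test cannot go below p = 0.333. The labels call the arrays biological replicates, and p-values measure the spread between these arrays.

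Probe sets were named from the platform annotation, where 34958 of 45101 had 1 gene symbol, 932 several and 9211 none. For genes with more than 1 probe set (9012 of 18194) the brightest by the mean of 20 arrays was used. A linear model with 10 group means was fitted to all 20 arrays with limma 3.58.1 (R 4.3.3), with Benjamini-Hochberg adjustment over 18194 genes. A gene was called at an adjusted p under 0.05 and at least a 2-fold change. The study's methods name SAM, and limma was used in its place. Errors of changes are standard errors of the fit.

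The members and the gene lists were chosen with earlier results of these data known. All 9 members were named, and from each list up to 4 genes with the widest called change in WT Flk1+ against WT ES cells. Likeness was the Pearson r over the 10 group means among non-member genes whose means spanned at least 2 log2 units. The nearest 8 with a regular gene symbol were named. Promoter sequences came from RefSeq. Replicate numbers were checked for pairing by correlating deviations from group means. The model was tested on simulated data. Alternatives covered the samples in the fit, an intensity trend, low genes, probe set choice, a second quantile normalisation, thresholds, the replicate number and scan day as blocks, and each array left out. Added after the data had been seen were a crossed replicate block, the parental-line arrays left out, and the widest-spread probe set.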

Additional observations from a re-analysis of the deposited data

Results flagged for a closer look

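The response to Dex differed between the genotypes for Fos and Junb by the test of the difference itself. DKO minus WT, it was -1.32 for Fos and -1.21 for Junb on the log2 scale. For Ier2 all DKO arrays were higher in Flk1+ than in ES cells (0.30) and all WT arrays lower (-0.56). This gap of 0.86 between the genotypes was not tested, since DKO Flk1+ and DKO ES arrays served the choice of the genes. The nearest arrays were close, 10.92 in DKO Flk1+ against 10.83 in DKO ES cells. In WT the clone read 11.22 in Flk1+ against 11.26 on the lower ES array, and the parental J1 array read 10.36.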

How the results depend on the processing

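Of 32 called changes of members none reversed in any setting run, and 12 lost their call in at least 1. All 12 did so under the 4-fold threshold, and 2 of them also when an array was left out. With the replicate number as a block 0 were lost, the count in WT Flk1+ against WT ES cells stayed 7 and no other call changed. The numbers were not shown to pair the samples (correlations of deviations from -0.167 to 0.361), and the crossed pairing, tried for WT Dex- against WT Flk1+ cells after the data had been seen, also gave 7. With scan day as a block 0 of 21 were lost, and ES contrasts could not be fitted that way. At 4-fold the counts of members were 3 in WT Dex- against WT Flk1+ cells (7 at 2-fold), 1 in DKO Dex+ against DKO Dex- (2), 0 in DKO Dex- against WT Dex- (1) and 0 for the difference in Dex response (2). By adjusted p alone, 8 members passed in WT Flk1+ against WT PE (5 with the fold). Leaving out 1 array gave 1 to 2 members in DKO Dex- against WT Dex- cells (2 without WT Dex- replicate 1, where Egr1 was -2.11), 0 to 3 for the difference in Dex response (0 without WT Dex- replicate 1 or DKO Dex- replicate 1), and 0 to 1 in DKO Flk1+ against WT Flk1+ cells (1 without DKO Flk1+ replicate 1). The last was also 1 without the parental-line arrays. For Egr1 the difference in Dex response turned to 0.03 without WT Dex- replicate 1, and was -2.05 without replicate 2. Egr3 turned from -0.23 to 2.44 with the mean of its probe sets and to 5.11 with the widest-spread one in WT Flk1+ against WT ES cells, and against WT PE to 2.49 and 5.00, where leaving out 1 array gave -0.08 to 0.06, with 0.06 without WT PE replicate 2 and 0.04 without WT Flk1+ replicate 2. Over all genes, calls in WT Flk1+ against WT ES cells numbered 2266, 4767 by adjusted p alone and 621 at 4-fold. In WT Dex+ against WT Dex- cells 291 were called, 156 in a fit of these groups alone and 161 without WT Dex+ replicate 2. In DKO PE against WT PE 356 were called, and leaving out replicate 2 of WT PE or of DKO PE gave 235 and 223. Causes of these shifts were not tested.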
